A study of Mus musculus with 30 samples.

Results

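The receptors of the epidermal growth factor (EGF) family and the growth factors that bind them were followed here in mouse lung, as 8 genes chosen by name out of the 18193 genes that the array annotation names by a single symbol. Hbegf, Ereg, Tgfa and Btc encode ligands, Egfr, Erbb2 and Erbb3 encode receptors, and Adam17 encodes the protease that releases most of these ligands. The 8 genes had 21 probe sets (groups of short oligonucleotides that measure one transcript region), of which 17 passed a filter on low signal. Of the 8 genes, 7 were among the 13089 tested, and Btc was not.

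Ligands of the EGF family are made as precursors anchored in the cell membrane and act after a metalloprotease, most often ADAM17, cuts their outer part free. A ligand bound to EGFR or ERBB3 makes the receptors pair, ERBB2 being the preferred partner although it has no known ligand of its own, and ERBB3 having little kinase activity of its own. The paired receptors signal through the RAS-ERK and PI3K-AKT cascades, and in lung they are best known for the repair of injured airway and alveolar epithelium and for mucus secretion.

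The study measured whole-lung RNA of C57BL/6 mice on 30 Affymetrix arrays, with 1 animal per array and no genetic change in any group. Adults were 16 weeks old and juveniles 21 days old, and each age had a group given lipopolysaccharide followed by mechanical ventilation (LPS+MV), a group given lipopolysaccharide alone (LPS), a ventilated group (MV) and an untreated control group that breathed spontaneously. LPS, the endotoxin of Escherichia coli, was inhaled as an aerosol for 30 min, and LPS animals then breathed on their own for 2 h. Ventilation lasted 2 h at a tidal volume of 15 mL/kg with 30% oxygen and an end-expiratory pressure of 2 cmH2O. Every group held 4 animals, except juvenile MV and juvenile LPS+MV with 3 each. LPS animals were never ventilated and controls were neither exposed to the aerosol chamber nor ventilated, as far as the labels say, so handling cannot be told apart from treatment.

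Array medians were alike, from 21.6 to 22.8 intensity units, whereas upper quartiles ran from 89.1 to 111. The lowest upper quartile was that of adult MV replicate 3. Some results depended on the scaling, as given below. Transcripts that mark lung were bright on all arrays: Sftpc of alveolar type 2 cells lay between 18124 and 22163, Ager of type 1 cells between 7119 and 12681, and Scgb1a1 of club cells between 16684 and 23537. Xist, the transcript of the inactive X chromosome, was high on 11 arrays and low on 19, and the share differed by group: high on 3 of 4 adult LPS+MV, 0 of 4 adult LPS, 4 of 4 adult MV and 0 of 4 adult control arrays, and on 2 of 3, 0 of 4, 1 of 3 and 1 of 4 arrays of the same juvenile groups. Between the adult MV and control groups, ventilation and Xist level therefore cannot be told apart. In adult LPS+MV against LPS or control they are separated by LPS+MV replicate 4 alone. Values with an Xist term are given where they change a call of the 8 genes. Pathway lists and cell type markers were not read again with it. On 3 arrays (adult LPS+MV replicate 2, juvenile LPS+MV replicate 3 and juvenile control replicate 4) the residual spread across genes was 0.186 to 0.203 on the log2 scale, over 1.5 times the median of 0.120. Lung is a mixture of cells, and in such tissue fewer cells of a type and less RNA per cell cannot be told apart.

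The promoters of Egfr, Erbb2 and Adam17 are shown because these receptors and the protease changed with LPS or ventilation below, so that their regulatory DNA can be read beside their values. Each RefSeq window runs from 250 bases before to 50 bases after the annotated start in GRCm38.p6, 5′ to 3′ on the gene's own strand, at chr11:16751953-16752252 (plus strand) for Egfr, chr11:98412234-98412533 (plus strand) for Erbb2 and chr12:21373583-21373882 (minus strand) for Adam17. Capitals mark a GC box, GGGCGG on either strand.
Egfr promoter: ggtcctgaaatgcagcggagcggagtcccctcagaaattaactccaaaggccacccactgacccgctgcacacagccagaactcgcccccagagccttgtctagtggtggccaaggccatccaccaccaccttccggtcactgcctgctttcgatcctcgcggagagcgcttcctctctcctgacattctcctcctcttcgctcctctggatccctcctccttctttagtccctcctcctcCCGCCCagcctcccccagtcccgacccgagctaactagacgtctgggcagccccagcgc
Erbb2 promoter: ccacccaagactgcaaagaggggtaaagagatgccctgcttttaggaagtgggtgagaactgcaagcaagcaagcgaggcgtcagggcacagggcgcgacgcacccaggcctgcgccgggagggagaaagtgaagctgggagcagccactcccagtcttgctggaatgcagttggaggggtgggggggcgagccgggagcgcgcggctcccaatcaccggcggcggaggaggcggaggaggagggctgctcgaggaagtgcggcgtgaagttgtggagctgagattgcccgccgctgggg
Adam17 promoter: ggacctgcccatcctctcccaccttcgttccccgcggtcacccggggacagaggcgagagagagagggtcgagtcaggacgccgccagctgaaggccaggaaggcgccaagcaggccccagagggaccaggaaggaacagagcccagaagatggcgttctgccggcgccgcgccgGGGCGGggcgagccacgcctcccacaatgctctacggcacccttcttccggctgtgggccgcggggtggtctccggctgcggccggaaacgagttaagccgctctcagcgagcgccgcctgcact

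The windows of Egfr, Erbb2 and Adam17 were 62.3%, 66% and 70% G or C, against a median of 52.7% over 32851 RefSeq windows of the same length. A GC box was present in the Egfr and Adam17 windows and absent from the Erbb2 window, and 35.7% of all windows held one. On either strand, no copy of the AP-1 site TGANTCA, the cyclic AMP response element TGACGTCA, the NF-kB consensus or the TATA box TATAAA occurred in any of the 3 windows. These motifs occurred in 7.81%, 1.79%, 4.51% and 13.6% of all windows, in that order, and none overlaps another in the 3 windows shown. Windows for Tgfa and Btc were also read, with 2 GC boxes and 0 GC boxes, and none of the other 4 motifs. Hbegf, Ereg and Erbb3 were not among the windows read.

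**Figure D1:**
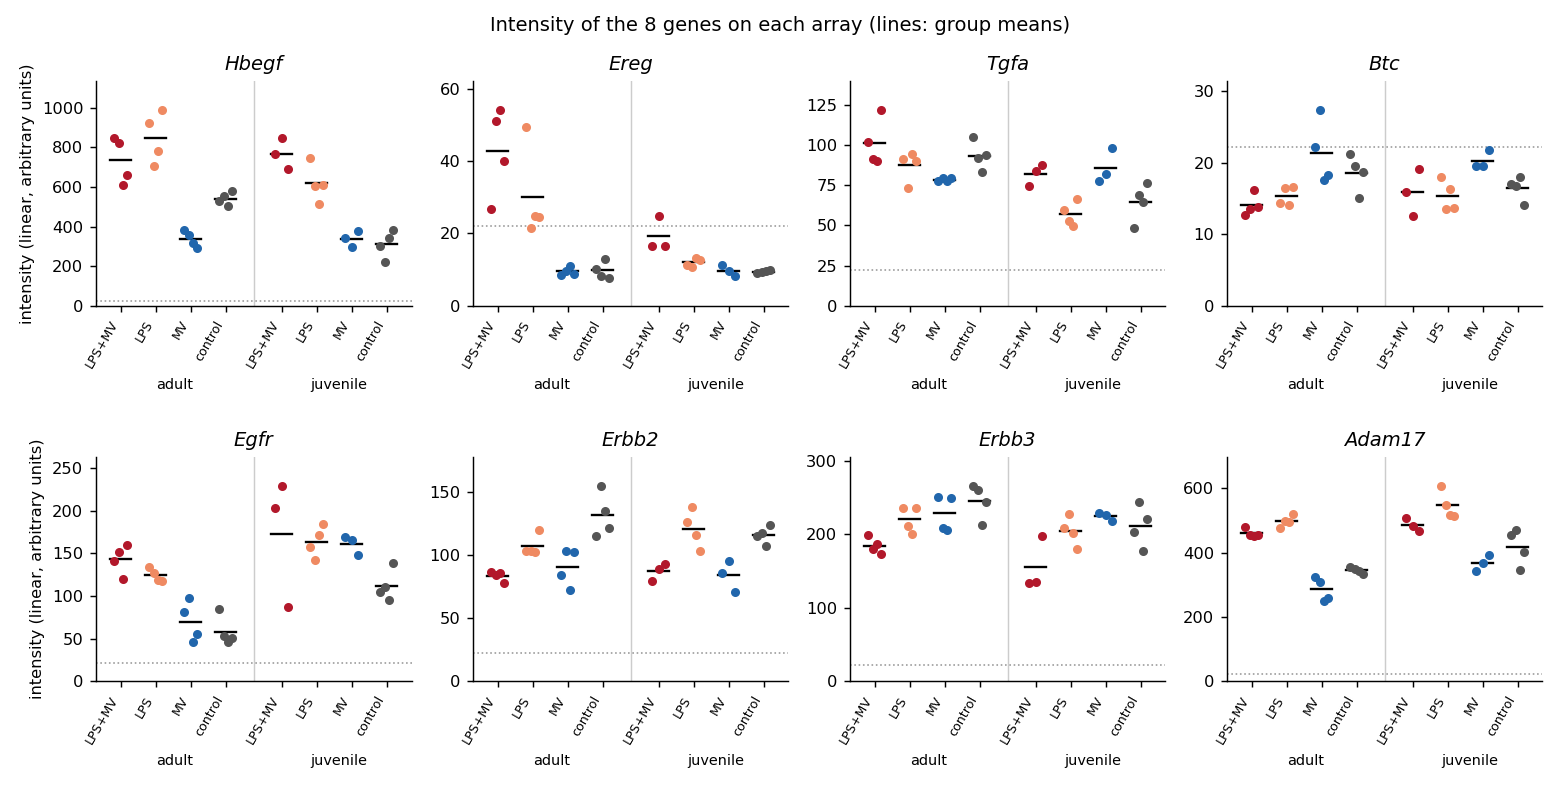
Intensity of each of the 8 genes on each of the 30 arrays, on linear axes that start at 0, by group, with adults on the left and juveniles on the right of each panel. Points are animals, short lines are group means, and the dotted line is the median of the array medians. Hbegf was highest in the LPS groups of both ages, and most Ereg values and all but 2 Btc values lay below the dotted line.

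Hbegf, the heparin-binding ligand of EGFR, was higher after LPS at both ages and had the largest fold changes of the 7 genes tested with LPS and LPS+MV in juveniles. Its brighter probe set, 1418350_at, read 848, 819.8, 609.6 and 661 in adult LPS+MV lungs, 920.0, 705, 781 and 986 in adult LPS lungs, 382, 359.6, 317 and 290.5 in adult MV lungs and 529, 553, 506 and 577 in adult control lungs. It read 765, 847 and 692 in juvenile LPS+MV lungs, 745, 603, 514 and 611 in juvenile LPS lungs, 343, 296 and 378 in juvenile MV lungs and 302, 219.9, 342 and 382 in juvenile control lungs. At each age every LPS-treated lung was above every lung that had no LPS.

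Against control, Hbegf rose by 0.61 ± 0.13 with LPS (log2 fold change ± SE, adjusted p = 8.3e-04) and by 0.41 ± 0.13 with LPS+MV (adjusted p = 0.016) in adults, and by 0.93 ± 0.13 (adjusted p = 5.7e-06) and 1.24 ± 0.15 (adjusted p = 2.1e-07) with the same treatments in juveniles. The adult LPS+MV call ended with an Xist term (0.29, adjusted p = 0.16) and without adult LPS+MV replicate 1 (0.34, adjusted p = 0.064) or replicate 2 (0.35, adjusted p = 0.054). All adjusted p-values come from limma fitted over the 13089 genes with Benjamini-Hochberg adjustment, and a change passed at an adjusted p below 0.05. Against MV alone, LPS+MV raised Hbegf by 1.05 ± 0.13 in adults (adjusted p = 1e-06) and by 1.11 ± 0.16 in juveniles (adjusted p = 5.9e-06), with no overlap between the groups. LPS+MV against LPS alone gave -0.20 ± 0.13 in adults (adjusted p = 0.39) and 0.31 ± 0.15 in juveniles (adjusted p = 0.16), and neither passed, although the juvenile one did with array weights (0.38, adjusted p = 0.027).

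Ventilation alone went with lower Hbegf in adults, by -0.64 ± 0.13 against control (adjusted p = 7.6e-04), and the groups did not overlap. In juveniles the same comparison gave 0.13 ± 0.15 (adjusted p = 0.65). The difference between the ages was itself past the threshold, at -0.77 ± 0.20 (adjusted p = 0.021). The age difference in the LPS+MV response was -0.83 ± 0.20 (adjusted p = 0.027), that is, a smaller rise in adults, while the age difference in the LPS response was -0.32 ± 0.19 (adjusted p = 0.40). The LPS+MV difference between ages was lost when any of 6 arrays was left out: juvenile control replicate 1 or 2, juvenile LPS+MV replicate 1 or 2, adult control replicate 4 or adult LPS+MV replicate 3, with adjusted p from 0.050 to 0.065. It was also lost with the mean over the probe sets (-0.54, adjusted p = 0.087) and in a fit of only the compared groups (adjusted p = 0.072).

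Untreated adults had more Hbegf signal than untreated juveniles, by 0.76 ± 0.13 (adjusted p = 1.4e-04), and no adult control was as low as the highest juvenile control. The MV groups of the ages were side by side, at 290.5 to 382 in adults and 296 to 378 in juveniles. The dimmer Hbegf probe set, 1418349_at, also rose with LPS (0.95 in adults, adjusted p = 2.1e-07, and 0.90 in juveniles, adjusted p = 6.4e-07) and fell with adult MV (-0.36, adjusted p = 0.019). It did not pass for the age of the controls (0.26, adjusted p = 0.10), for the age difference in the MV response (-0.36, adjusted p = 0.20) or for that in the LPS+MV response (-0.24, adjusted p = 0.47), so these results rest on the brighter probe set alone. On the dimmer probe set LPS+MV was below LPS in adults (-0.40, adjusted p = 0.025).

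Neutrophil markers moved with the groups in which Hbegf was high. Of 8 neutrophil genes tested out of 10 listed, 7 rose with LPS and 4 with LPS+MV in adults, and 5 and 8 in juveniles, while with MV alone 0 rose and 1 fell in adults and 2 rose in juveniles. Of the same 8 genes, 6 were higher and 0 lower in adult than in juvenile controls, where Hbegf was higher too, with a median log2 difference of 1.26. Their summed intensity ran from 18530 to 24384 in adult LPS+MV, 22327 to 35863 in adult LPS, 2205 to 10281 in adult MV and 2764 to 23742 in adult control lungs. In juveniles it ran from 16741 to 17816 with LPS+MV, 7928 to 9438 with LPS, 3517 to 5830 with MV and 1126 to 4206 in controls. Most of this sum was S100a8 and S100a9, which ran from 1353 to 11365 and from 862 to 9471 in adult controls. Hbegf read 506 to 577 in adult controls. Of 9 monocyte and macrophage markers tested, 5 were higher and 0 lower in adult than in juvenile controls. With LPS+MV, LPS and MV, 1, 1 and 1 rose and 2, 1 and 3 fell in adults, and 2, 3 and 0 rose and 0 fell in juveniles. Marco, a scavenger receptor of macrophages, read 153 to 187 in adult LPS and 36.0 to 65.2 in adult control lungs, and 158 to 208 in juvenile LPS and 46.8 to 70.5 in juvenile control lungs. The sum of these markers, most of which was Lyz2 and Chil3, lay between 16588 and 23235 in all groups, and no listed marker was at 0 on any array. The part of these cells in the Hbegf result was not tested.

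Ereg, which encodes epiregulin, another EGFR ligand made as a membrane precursor, was near the floor of the array in most lungs. It was above its array's median in 4 of 4 adult LPS+MV, 3 of 4 adult LPS and 1 of 3 juvenile LPS+MV lungs. Its only probe set, 1419431_at, was above its array's median on 8 of 30 arrays, so it entered the test only through the groups in which it is high, and its fold changes are given as description of those groups and as support for nothing else. It read 26.6, 51.0, 54.0 and 39.9 in adult LPS+MV lungs and 49.4, 21.5, 24.9 and 24.6 in adult LPS lungs, against 8.51, 9.51, 11.1 and 8.91 in adult MV lungs and 10.1, 8.34, 12.9 and 7.64 in adult control lungs. In juveniles it read 16.6, 24.7 and 16.6 with LPS+MV, 11.3, 10.7, 13.2 and 12.7 with LPS, 11.2, 9.59 and 8.29 with MV and 8.99, 9.34, 9.52 and 9.76 in controls.

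Every adult lung with LPS was above every adult lung without it, and juvenile LPS lungs, at 10.7 to 13.2, were just above the controls, at 8.99 to 9.76. The log2 fold change of Ereg against control was 0.55 ± 0.10 with LPS (adjusted p = 6.7e-05) and 0.83 ± 0.10 with LPS+MV (adjusted p = 1.3e-07) in adults, and 0.09 ± 0.10 (adjusted p = 0.58) and 0.31 ± 0.11 (adjusted p = 0.027) in juveniles. The juvenile LPS+MV call ended without juvenile LPS+MV replicate 2 (adjusted p = 0.16), without juvenile control replicate 1 (adjusted p = 0.052) and with an Xist term (adjusted p = 0.052). These values are on the log2(intensity + 32) scale, and since Ereg was at the floor in control lungs their size depends on the added constant. With 1 added in place of 32 both adult calls also passed (adjusted p = 1.1e-08 with LPS+MV and 2.3e-06 with LPS). The differences between ages, 0.47 ± 0.14 for LPS and 0.52 ± 0.14 for LPS+MV, did not pass (adjusted p = 0.054 and 0.051). Adjusted p-values under other settings fell on both sides of the threshold. Leaving out adult LPS replicate 2 (adjusted p = 0.032) brought the LPS one past the threshold, as did an added constant of 1 (0.021), quantile normalization (0.0499), a fit of only the compared groups (0.044) and leaving out the 3 arrays with a wide residual spread (0.049). Leaving out juvenile control replicate 4, juvenile LPS+MV replicate 2 or adult LPS+MV replicate 1 (adjusted p = 0.033, 0.046 and 0.014) did the same for LPS+MV, as did quantile normalization (0.046) and array weights (0.021), whereas with an added constant of 1 it did not pass (0.063). LPS+MV against LPS in adults gave 0.28 ± 0.10 (adjusted p = 0.082), and it passed with array weights (0.31, adjusted p = 0.035), without adult LPS replicate 1 (0.41, adjusted p = 0.0026) or adult LPS+MV replicate 1 (0.39, adjusted p = 0.010).

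Tgfa, which encodes transforming growth factor alpha, a ligand of EGFR, changed little and differently at the 2 ages. Its brightest probe set, 1421943_at, read 102, 91.2, 90.1 and 121 in adult LPS+MV, 91.1, 73.2, 94.6 and 90.2 in adult LPS, 77.7, 79.2, 77.4 and 79.4 in adult MV and 105, 92.0, 83.0 and 93.5 in adult control lungs. It read 74.5, 84.0 and 87.3 in juvenile LPS+MV, 59.2, 52.6, 49.5 and 66.6 in juvenile LPS, 77.4, 81.9 and 98.1 in juvenile MV and 48.6, 68.6, 64.7 and 76.5 in juvenile control lungs. All ventilated juveniles except LPS+MV replicate 1 were above all juvenile controls, and all juvenile LPS lungs were below every ventilated juvenile lung.

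Tgfa was higher in adult than in juvenile controls, by 0.38 ± 0.09 (adjusted p = 0.0019), and the control groups did not overlap. In juveniles it rose with MV by 0.29 ± 0.09 (adjusted p = 0.046), with LPS+MV by 0.25 ± 0.09 (adjusted p = 0.049), and with LPS+MV over LPS by 0.36 ± 0.09 (adjusted p = 0.011), whereas LPS alone gave -0.11 ± 0.09 (adjusted p = 0.39). The juvenile MV call ended when any of 6 of its 7 arrays was left out, all but juvenile control replicate 4, with adjusted p from 0.052 to 0.23. The juvenile LPS+MV call ended without any of 5 of its 7 arrays, juvenile control replicates 1, 2 and 3 and LPS+MV replicates 2 and 3, with adjusted p from 0.054 to 0.21, and LPS+MV over LPS ended without LPS+MV replicate 3 (adjusted p = 0.055). With an Xist term the adjusted p was 0.053 for juvenile MV and 0.083 for juvenile LPS+MV, without the filter 0.069 and 0.071, and in fits of only the compared groups 0.20 and 0.14. Juvenile MV also ended with quantile normalization (adjusted p = 0.0501), and juvenile LPS+MV without the 3 arrays with a wide residual spread (adjusted p = 0.070). With the mean over probe sets, juvenile MV gave 0.12 (adjusted p = 0.096) and juvenile LPS+MV over LPS 0.13 (adjusted p = 0.066).

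In adults, MV against control gave -0.18 ± 0.09 for Tgfa (adjusted p = 0.12) and LPS+MV against MV gave 0.26 ± 0.09 (adjusted p = 0.036). The second of these was lost without any adult MV array or without LPS+MV replicate 1 or 4, with adjusted p from 0.061 to 0.17, and under quantile normalization (adjusted p = 0.10), without the filter (0.053), in a fit of only the compared groups (0.051) and with the mean over probe sets (0.07, adjusted p = 0.34). The age difference in the MV response was -0.47 ± 0.13 (adjusted p = 0.029). It ended with an Xist term (adjusted p = 0.094) and without juvenile control replicate 1, juvenile MV replicate 2 or 3, adult control replicate 1 or adult MV replicate 3 (adjusted p from 0.051 to 0.070). It also ended under quantile normalization (adjusted p = 0.087), in a fit of only the compared groups (0.057) and with the mean over probe sets (-0.13, adjusted p = 0.22). The dimmer Tgfa probe sets, 1450421_at and 1421942_s_at, stayed near the array median, at 19.7 to 30.7 and 14.4 to 27.1, and passed in no comparison.

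Btc, which encodes betacellulin, a ligand of EGFR and ERBB4, gave no signal clearly above the array's background. Probe set 1435541_at lay between 12.6 and 27.3 and was above its array's median on 1 of 30 arrays, and 1421161_at lay between 6.63 and 11.0. It read 12.7, 13.6, 16.2 and 13.9 in adult LPS+MV lungs, against 22.2, 27.3, 17.6 and 18.2 in adult MV lungs and 21.3, 19.6, 15.0 and 18.6 in adult control lungs. These readings are at the array's background, so no fold change is given for Btc.

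Egfr, the receptor for all the ligands above, was higher with LPS in adults and lower in adult than in juvenile controls. Probe set 1435888_at read 141, 152, 119.6 and 160.2 in adult LPS+MV lungs, 134, 127, 119 and 118 in adult LPS lungs, 81.7, 97.4, 46.5 and 55.1 in adult MV lungs and 84.4, 52.8, 46.0 and 50.5 in adult control lungs. It read 203, 229 and 86.6 in juvenile LPS+MV, 157, 142, 172 and 184 in juvenile LPS, 169, 165 and 148 in juvenile MV and 104, 111, 95.2 and 138 in juvenile control lungs. All adult lungs with LPS were above all adult lungs without it. In juveniles the LPS and MV lungs were all above the controls, and LPS+MV replicate 3, one of the arrays with a wide residual spread, was below every control.

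Against control, Egfr rose in adults by 0.81 ± 0.17 with LPS (adjusted p = 6.4e-04) and by 0.97 ± 0.17 with LPS+MV (adjusted p = 6.4e-05), and LPS+MV exceeded MV by 0.80 ± 0.17 (adjusted p = 0.0012). The juvenile values were 0.43 ± 0.19 with MV (adjusted p = 0.15), 0.45 ± 0.17 with LPS (adjusted p = 0.065) and 0.44 ± 0.19 with LPS+MV (adjusted p = 0.079), none of which passed. Without juvenile LPS+MV replicate 3 the last of these was 0.79 (adjusted p = 5.7e-04), and without juvenile control replicate 4 it passed at an adjusted p of 0.047 and juvenile LPS at 0.041. With an Xist term juvenile LPS+MV passed too (0.54, adjusted p = 0.037), as it did with the mean over probe sets (0.21, adjusted p = 0.022). Without the 3 arrays with a wide residual spread all juvenile responses passed, at 0.87 with LPS+MV (adjusted p = 3.0e-04), 0.53 with LPS (adjusted p = 0.0057) and 0.51 with MV (adjusted p = 0.022). Array weights brought them past the threshold as well (adjusted p = 6.5e-05, 0.018 and 0.015), and adult MV with them (0.36, adjusted p = 0.034). Juvenile LPS also passed under quantile normalization (adjusted p = 0.049) and in a fit of only the compared groups (adjusted p = 0.012). No difference between ages in a treatment response passed for Egfr, with 0.36 ± 0.25 for LPS (adjusted p = 0.48) and 0.53 ± 0.26 for LPS+MV (adjusted p = 0.26). Adult controls were below juvenile controls by -0.68 ± 0.17 (adjusted p = 0.0047), with no overlap.

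Beside the lower Egfr of adult controls, 5 of 7 fibroblast and smooth muscle genes were lower in adult than in juvenile controls. Their summed intensities were 13110 to 14935 in adults and 21111 to 24099 in juveniles. Sums of epithelium at large were higher in adult controls, at 5718 to 6178 against 4276 to 5021. Those of airway epithelium were higher too, at 42162 to 45168 against 32572 to 37494. With LPS in adults, where Egfr rose, 4 of the 7 fibroblast and smooth muscle genes fell, with sums of 10327 to 12248. Of 6 genes of epithelium at large 5 rose and Krt7 fell (-0.34, adjusted p = 0.0017). Their sums were 6829 to 7407 in adult LPS and 5718 to 6178 in adult control lungs. Alveolar epithelial sums were lower with LPS. Type 1 markers summed to 30963 to 33009 in adult LPS and 37380 to 39120 in adult control lungs. Type 2 markers summed to 44157 to 48699 and 48996 to 53109 in the same groups. The part of any of these cell classes in the Egfr values was not tested.

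The Egfr probe sets did not move alike. Probe set 1424932_at gave 0.63 with LPS (adjusted p = 4.2e-04) and 0.78 with LPS+MV (adjusted p = 2.2e-05) in adults and 0.46 with LPS+MV in juveniles (adjusted p = 0.014), and was lower in adult controls (-0.45, adjusted p = 0.012). Probe set 1451530_at rose with LPS+MV at both ages (0.22 in adults, adjusted p = 0.017, and 0.36 in juveniles, adjusted p = 0.0011) and with LPS in juveniles (0.21, adjusted p = 0.045). Probe set 1460420_a_at stayed between 96.9 and 131 on all 30 arrays, and 1432647_at and 1454313_at between 17.9 and 49.4 and between 20.6 and 32.7, and these 3 passed in no comparison. The seventh, 1457563_at, was below the filter.

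**Figure D2:**
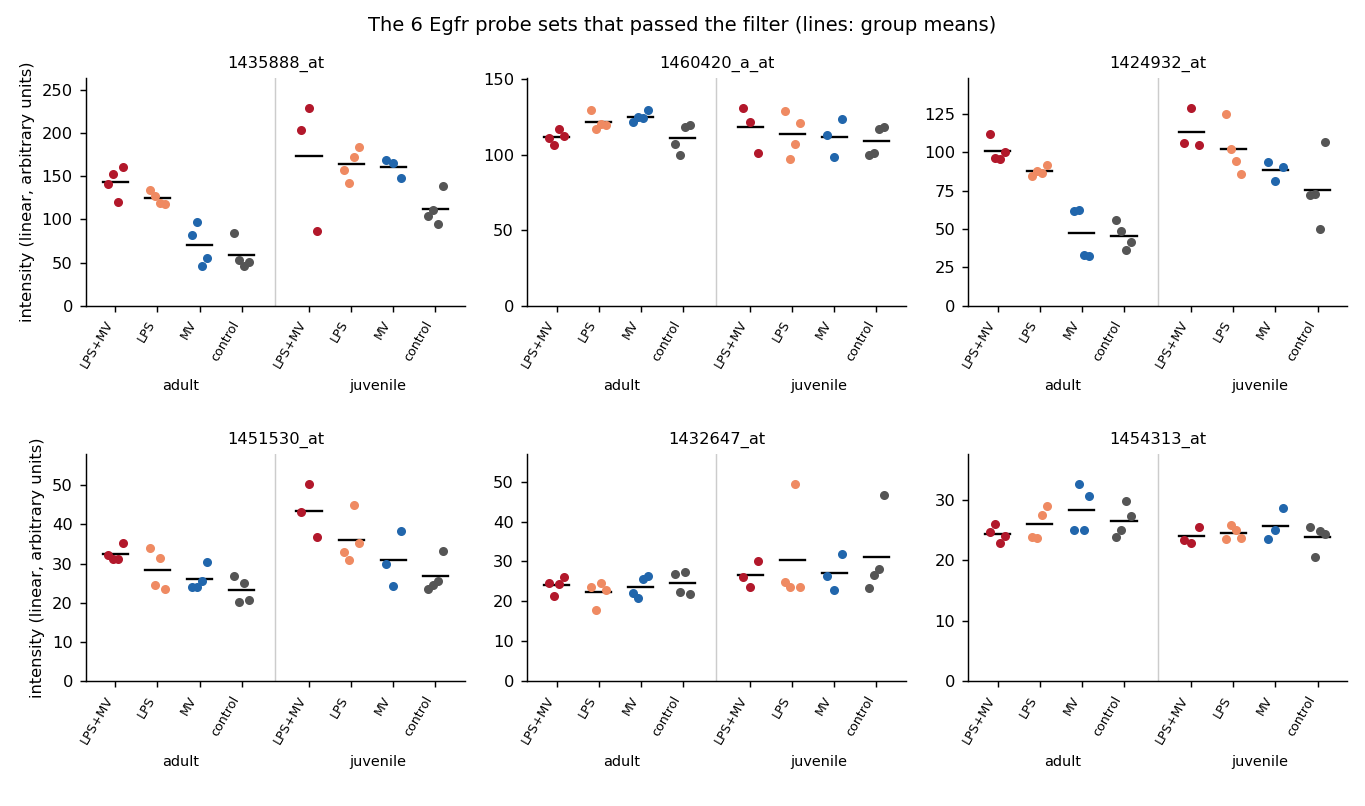
Intensity of the 6 Egfr probe sets that passed the filter on each array, on linear axes that start at 0, with adults on the left and juveniles on the right of each panel and short lines at group means. Probe sets 1435888_at and 1424932_at were higher in adult LPS and LPS+MV lungs than in adult MV and control lungs, and 1460420_a_at stayed between 96.9 and 131 in all groups.

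Erbb2, the partner receptor without a ligand, was lower in ventilated than in control lungs at both ages, although in adults most ventilated and no control arrays were high in Xist. Its probe set 1424919_at read 86.6, 84.5, 85.5 and 77.4 in adult LPS+MV, 103, 103, 102 and 119 in adult LPS, 84.3, 103, 72.4 and 103 in adult MV and 115, 154, 135 and 121 in adult control lungs. It read 79.6, 88.8 and 92.8 in juvenile LPS+MV, 126, 138, 116 and 103 in juvenile LPS, 85.9, 95.0 and 70.7 in juvenile MV and 115, 117, 107 and 124 in juvenile control lungs. At each age all ventilated lungs, with or without LPS, were below all control lungs.

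Erbb2 fell with MV against control, by -0.42 ± 0.09 in adults (adjusted p = 7.3e-04) and by -0.36 ± 0.09 in juveniles (adjusted p = 0.016), and with LPS+MV by -0.50 ± 0.09 in adults (adjusted p = 4.8e-05) and by -0.31 ± 0.09 in juveniles (adjusted p = 0.012). LPS+MV was below LPS by -0.35 ± 0.09 in juveniles (adjusted p = 0.011), and by -0.26 ± 0.09 in adults, which missed the threshold (adjusted p = 0.062) although the groups did not overlap. The adult one passed under quantile normalization (-0.29, adjusted p = 0.018), with array weights (adjusted p = 0.031) and in a fit of only the compared groups (adjusted p = 0.035). LPS alone lowered Erbb2 in adults by -0.23 ± 0.09 (adjusted p = 0.040), a call lost without adult control replicate 2 or 3 or adult LPS replicate 1, 2 or 3 (adjusted p from 0.080 to 0.17), under quantile normalization (0.078), without the filter (0.055) and in a fit of only the compared groups (0.055), and gave 0.04 ± 0.09 in juveniles (adjusted p = 0.79). LPS+MV did not differ from MV by the test, at -0.08 (95% interval -0.26 to 0.10) in adults and 0.04 (95% interval -0.16 to 0.25) in juveniles. Of the ventilation calls, juvenile MV was lost without juvenile MV replicate 3 (adjusted p = 0.12) and in a fit of only the compared groups (adjusted p = 0.099), and juvenile LPS+MV against control and against LPS without juvenile LPS+MV replicate 1 (adjusted p = 0.064 and 0.058). The comparison of juvenile LPS+MV with LPS also ended with an Xist term (adjusted p = 0.052). Adult MV passed with it (-0.39, adjusted p = 0.029), but this cannot separate ventilation from Xist level. Xist was high on all adult MV arrays and on no adult control array. No age difference passed for Erbb2.

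Alveolar type 1 markers and some fibroblast and smooth muscle genes were also lower in ventilated adults, the type 1 markers in adult LPS lungs too. Other epithelial lists differed. Summed intensity of epithelium at large was 7002 to 7538 in adult LPS+MV, 5589 to 5926 in adult MV and 5718 to 6178 in adult control lungs. For airway epithelium it was 39376 to 43605, 42724 to 46787 and 42162 to 45168 in the same groups. Of 8 alveolar type 1 genes, 6 fell with LPS+MV, 5 with LPS and 6 with MV in adults, and 3, 1 and 0 in juveniles, and none rose. Their summed intensity was 26580 to 29971 in adult LPS+MV, 30963 to 33009 in adult LPS, 27853 to 31042 in adult MV and 37380 to 39120 in adult control lungs, and 30555 to 31078 in juvenile LPS+MV, 31785 to 34706 in juvenile LPS, 31850 to 33292 in juvenile MV and 31926 to 37983 in juvenile control lungs. Of 7 fibroblast and smooth muscle genes, 4 fell and 1 rose with LPS+MV and 4 fell and 2 rose with MV in adults, and 0 fell and 1 rose with each in juveniles. The part of these cells in the Erbb2 values was not tested.

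Erbb3, the receptor of neuregulins, was lower in lungs that had both LPS and ventilation. Probe set 1434606_at read 199, 180.0, 187 and 173 in adult LPS+MV, 236, 211, 200.1 and 236 in adult LPS, 251, 209, 206 and 249 in adult MV and 266, 260.4, 213 and 244 in adult control lungs. It read 134, 135 and 198 in juvenile LPS+MV, 208, 227, 202 and 179.6 in juvenile LPS, 229, 227 and 218 in juvenile MV and 203, 244, 177 and 220.5 in juvenile control lungs. All adult LPS+MV lungs were below all other adult lungs, and 2 of the 3 juvenile LPS+MV lungs were below all other juvenile lungs.

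Erbb3 fell with LPS+MV against control by -0.36 ± 0.10 in adults (adjusted p = 0.0044) and by -0.38 ± 0.11 in juveniles (adjusted p = 0.0066). With LPS alone it gave -0.13 ± 0.10 and -0.04 ± 0.10 in adults and juveniles (adjusted p = 0.30 and 0.83), and with MV alone -0.09 ± 0.10 and 0.09 ± 0.11 (adjusted p = 0.51 and 0.68). In juveniles LPS+MV was below LPS (-0.35 ± 0.11, adjusted p = 0.026) and below MV (-0.47 ± 0.11, adjusted p = 0.0044). In adults these values were -0.22 ± 0.10 (adjusted p = 0.17) and -0.26 ± 0.10 (adjusted p = 0.063), and the second passed without adult MV replicate 3 (-0.31, adjusted p = 0.047), under quantile normalization (-0.36, adjusted p = 0.0035) and with array weights (-0.27, adjusted p = 0.019). The juvenile fall against control ended without LPS+MV replicate 1 or 2 (adjusted p = 0.057 each). The fall against LPS ended with an Xist term (adjusted p = 0.077), without those same arrays (adjusted p = 0.14 and 0.15) and without juvenile LPS replicate 1 or 2 (adjusted p = 0.052 and 0.080). In fits of only the compared groups the juvenile LPS+MV calls against control, LPS and MV all ended (adjusted p = 0.091, 0.11 and 0.079).

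A test of whether LPS and ventilation together departed from the sum of their separate effects gave -0.43 ± 0.15 for Erbb3 in juveniles (adjusted p = 0.20) and -0.13 ± 0.14 in adults (adjusted p = 0.59). Without juvenile LPS+MV replicate 3 the juvenile value was -0.59 (adjusted p = 0.049), without the 3 arrays with a wide residual spread -0.61 (adjusted p = 0.040) and with array weights -0.55 (adjusted p = 0.012). Markers of alveolar type 2 cells also fell in the LPS+MV groups, though not there alone. Of 9 tested, 6 fell and 0 rose with LPS+MV, 4 fell and 1 rose with LPS and 4 fell and 1 rose with MV in adults, and 5, 3 and 1 fell and 0 rose in juveniles, while Erbb3 passed with LPS+MV and not with LPS or MV. Their summed intensity was 43848 to 47101 in adult LPS+MV and 48996 to 53109 in adult control lungs, and 42309 to 44977 in juvenile LPS+MV and 47158 to 53932 in juvenile control lungs. Their part in the Erbb2 and Erbb3 results was not tested. The other Erbb3 probe set, 1452482_at, was below the filter, at 9.21 to 16.4.

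Adam17, the ligand-releasing protease, was higher with LPS at both ages and lower with ventilation alone in adults, each on its brightest probe set. Probe set 1421858_at read 480.1, 455, 451 and 453 in adult LPS+MV, 476, 499, 494 and 520.2 in adult LPS, 325, 310.2, 249 and 260.3 in adult MV and 355, 349, 343 and 335 in adult control lungs. It read 508, 483 and 467 in juvenile LPS+MV, 606, 548, 517 and 515 in juvenile LPS, 343, 367 and 394 in juvenile MV and 455, 469, 345 and 401 in juvenile control lungs. In adults the LPS-treated lungs lay wholly above the controls, and the MV lungs wholly below them.

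Adam17 rose with LPS by 0.49 ± 0.08 in adults (adjusted p = 2.7e-05) and by 0.37 ± 0.08 in juveniles (adjusted p = 9.6e-04), and with LPS+MV by 0.38 ± 0.08 in adults (adjusted p = 3.6e-04). LPS+MV in juveniles gave 0.21 ± 0.09 (adjusted p = 0.060), which passed without juvenile control replicate 1 or 2 (adjusted p = 0.038 and 0.026), with an Xist term (adjusted p = 0.048), under quantile normalization (0.031), with array weights (0.040) and with the mean over probe sets (0.043). LPS+MV was above MV by 0.64 ± 0.08 in adults (adjusted p = 7.2e-07) and by 0.37 ± 0.09 in juveniles (adjusted p = 0.0054). MV alone lowered Adam17 in adults by -0.25 ± 0.08 (adjusted p = 0.016), which ended with an Xist term (adjusted p = 0.25), with the mean over the 3 probe sets (-0.05, adjusted p = 0.69), under quantile normalization (-0.17, adjusted p = 0.070) and without adult MV replicate 3 or 4 (adjusted p = 0.082 and 0.058). Adult controls were below juvenile controls by -0.24 ± 0.08 (adjusted p = 0.026), which ended without juvenile control replicate 1 or 2 or adult control replicate 3 or 4 (adjusted p from 0.055 to 0.12) and in a fit of only the compared groups (0.097). In juveniles MV alone passed with array weights only (-0.25, adjusted p = 0.023).

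The dimmer Adam17 probe sets, 1421859_at and 1421857_at, rose with LPS+MV in adults (0.39, adjusted p = 0.0016, and 0.47, adjusted p = 0.0033). With LPS alone in adults they gave 0.21 (adjusted p = 0.089) and 0.13 (adjusted p = 0.44), and in juveniles 0.22 (adjusted p = 0.097) and 0.23 (adjusted p = 0.20). With MV alone in adults they gave 0.10 (adjusted p = 0.47) and 0.01 (adjusted p = 0.96). The Adam17 calls with LPS alone and with adult MV alone therefore rest on the brightest probe set.

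In juveniles, arrays of the LPS+MV and MV groups that share a replicate number also deviated together. With that number as a block within these groups, chosen after seeing the data, the adjusted p against MV was 0.0049 for Hbegf, 0.078 for Erbb3, 0.059 for Adam17 and 0.029 for Ereg, so the Erbb3 and Adam17 calls ended and Ereg passed.

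**Figure D3:**
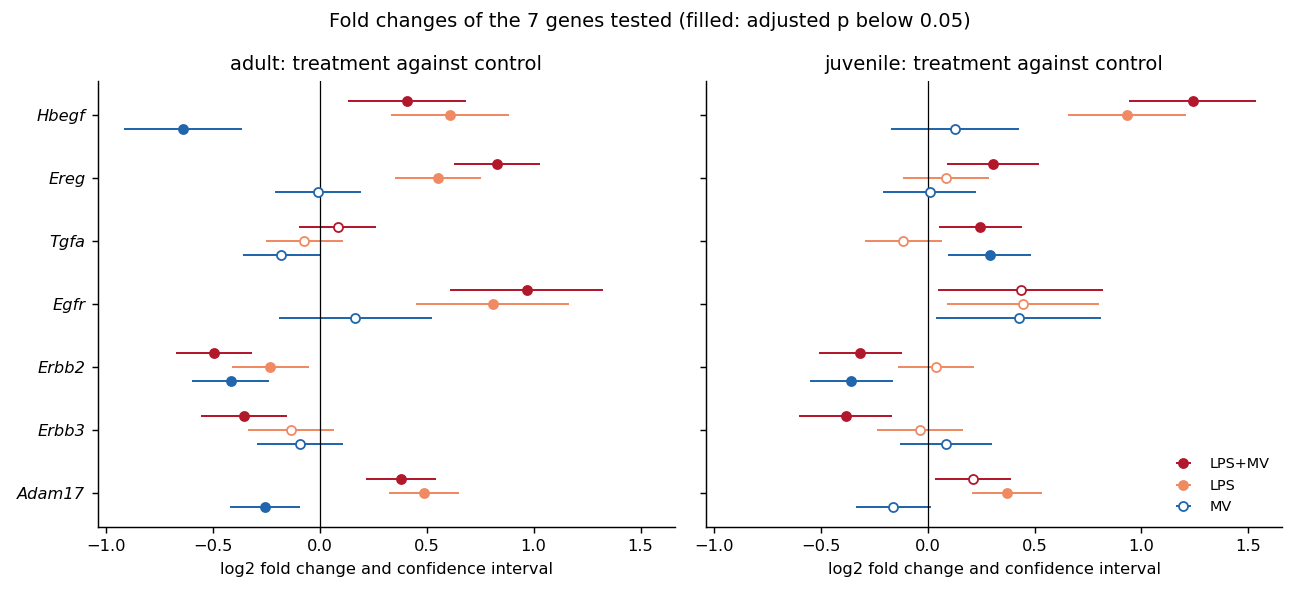
Log2 fold change against the control of the same age for the 7 genes tested, with 95% intervals, in adults on the left and juveniles on the right, with filled points where the adjusted p was below 0.05. Hbegf was higher with LPS and LPS+MV at both ages, Erbb2 was lower with MV and LPS+MV at both ages, and Egfr was filled in adults only, although its age differences did not pass.

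Ereg is left out of the counts that follow, since it passed the filter only through the groups in which it was high. Counted over the other 6 genes tested, and set beside all 13089 genes, 4 passed between adult and juvenile controls (2 higher, 2 lower in adults), where 25.2% of all genes passed. With MV, 3 passed in adults (all lower), where 31.5% of all genes did, and 2 passed in juveniles (1 higher, 1 lower), where 10.9% did. With LPS, 4 passed in adults (3 higher, 1 lower), where 36.0% did, and 2 passed in juveniles (both higher), where 22.9% did. With LPS+MV, 5 passed in adults (3 higher, 2 lower), where 42.1% did, and 4 passed in juveniles (2 higher, 2 lower), where 31.3% did. The median log2 fold change of the 6 genes was 0.23 with LPS+MV and 0.21 with LPS in adults, against -0.05 and -0.04 over all genes, and 0.23 and 0.21 in juveniles, against -0.05 and -0.03. With MV it was -0.22 in adults and 0.11 in juveniles, against -0.06 and -0.02.

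For LPS+MV against MV, 4 of the 6 genes passed in adults (all higher), where 17.4% of all genes did, and 3 passed in juveniles (2 higher, 1 lower), where 14.7% did. For LPS+MV against LPS, 0 of 6 passed in adults, where 7.08% of all genes did, with Erbb2 and Erbb3 coming closest, and 3 passed in juveniles (1 higher, 2 lower), where 15.5% did. The departure from additivity of LPS and MV passed for 0 of 6 genes in adults, where 7.17% of all genes did, and for 0 of 6 in juveniles, where 0.756% did. At an unadjusted p below 0.05 these 3 limma counts of 0 would be 2 for LPS+MV against LPS in adults, 2 for the adult departure from additivity and 1 for the juvenile one. The age difference passed for 2 of 6 genes in the MV response (Hbegf and Tgfa, both lower), where 6.15% did, for 0 of 6 in the LPS response, where 3.70% did (1 at an unadjusted p below 0.05), and for 1 of 6 in the LPS+MV response (Hbegf, lower), where 2.10% did. Each treatment of an age was set against the same controls, so these comparisons share arrays.

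Over all genes, the share of calls that were higher depended on the scaling in 5 comparisons. With quantile normalization in place of the deposited scale it was 41.4% in place of 22.7% for adult MV against control, 42.6% in place of 52.5% for adult LPS+MV against LPS, and 42.9% in place of 69.1% for adult LPS+MV against MV. It was 47.1% in place of 76.9% for the adult departure from additivity and 46.1% in place of 21.1% for the age difference in the MV response.

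The genes whose 8 group means lay nearest to those of Hbegf, after each gene's own mean was removed, were Igsf6, Syk and Pglyrp1, with root mean square differences of 0.09, 0.14 and 0.15 on the log2 scale against a span of 1.37 for Hbegf. Syk encodes a tyrosine kinase of immune receptors and Pglyrp1 a peptidoglycan-binding protein of neutrophil granules. For Egfr, with a span of 1.13, the nearest were Tra2a, a splicing factor, Lpar1, a receptor of lysophosphatidic acid, and Spred1, an inhibitor of RAS-ERK signalling, at 0.14, 0.15 and 0.16. The other 5 genes tested spanned under 1 log2 unit, and no nearest genes are named for them.

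**Figure D4:**
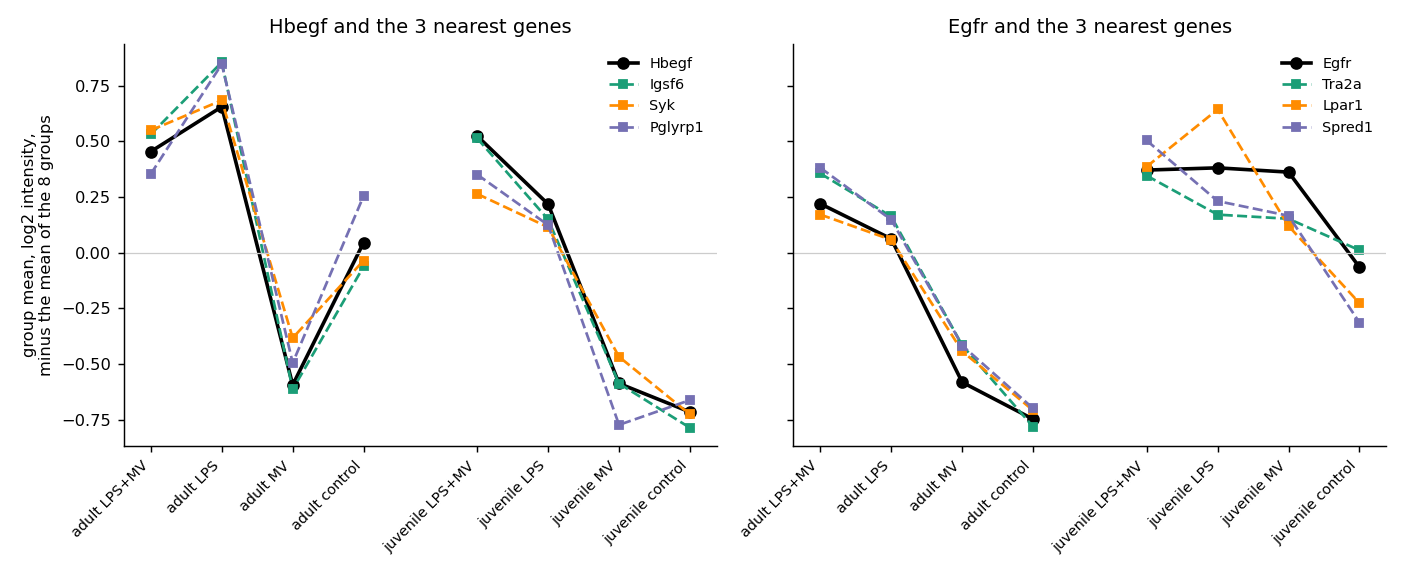
Group means of log2(intensity + 32) minus the mean of the 8 groups, for Hbegf (left) and Egfr (right) as solid black lines and for their 3 nearest genes as dashed lines, with adult groups before juvenile groups on each axis. Igsf6, at a root mean square difference of 0.09, stays closest to Hbegf, and the genes nearest to Egfr differ from it by 0.14 to 0.16.

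Other genes of the pathway were read from lists of names, and their values are log2 fold changes against control of the same age. Of all genes tested, 42.1%, 36.0% and 31.5% passed with LPS+MV, LPS and MV in adults. In juveniles 31.3%, 22.9% and 10.9% passed with the same treatments. The list counts below, and the marker counts above, are to be read beside these shares. Neither these counts nor the values of list genes were read with an Xist term. Over all genes, that term left 1710 of 4121 as the number of calls for adult MV. Of 8 other ligands and receptors of the family, 7 had a probe set and only Nrg2, a neuregulin, passed the filter on low signal, and it passed in no comparison. Among 12 sheddases and their regulators, all tested, 5 rose and 3 fell with LPS+MV, 5 rose and 2 fell with LPS and 0 rose and 3 fell with MV in adults. In juveniles 6 rose and 1 fell with LPS+MV, 5 rose and 2 fell with LPS and 0 rose and 1 fell with MV. Rhbdf2, which carries ADAM17 to the cell surface, rose by 0.70 and 0.52 with LPS+MV and LPS in adults and by 0.85 and 0.54 in juveniles, and its relative Rhbdf1 by 0.39 and 0.44 in adults and by 0.47 and 0.50 in juveniles. Timp1, a metalloprotease inhibitor, rose by 1.90 and 2.24 in adults and by 2.43 and 2.96 in juveniles with the same treatments. Adam8, a protease of leukocytes, rose by 1.52 and 1.20 in adults and by 1.48 and 0.63 in juveniles, and Tspan15, a tetraspanin that guides ADAM10, fell (-0.59 and -0.45 in adults, -0.43 and -0.31 in juveniles).

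Among 18 feedback inhibitors and receptor turnover genes tested of 20 listed, 6 rose and 4 fell with LPS+MV, 4 rose and 4 fell with LPS and 2 rose and 5 fell with MV in adults. In juveniles 7 rose and 1 fell with LPS+MV, 1 rose and 2 fell with LPS and 4 rose and 0 fell with MV. Errfi1, which binds and inhibits the EGFR kinase, rose in adults by 1.71 ± 0.27 with LPS+MV, 1.43 ± 0.27 with LPS and 1.56 ± 0.27 with MV. In juveniles it rose by 0.79 ± 0.29 with LPS+MV (adjusted p = 0.040) and fell by 0.77 ± 0.27 with LPS (adjusted p = 0.039), and the age difference in the LPS response was 2.21 ± 0.38 (adjusted p = 0.0012). Spred1 and Spry4, inhibitors of RAS-ERK signalling, rose by 1.08 and 0.80 with LPS+MV in adults and by 0.82 and 1.05 in juveniles. Dusp6, an ERK phosphatase, fell by 0.73 ± 0.13 with MV in adults (adjusted p = 1.2e-04), and the age difference in the MV response was -1.04 ± 0.19 (adjusted p = 0.0020).

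Among 17 adaptors and kinases tested of 22 listed, 5 rose and 5 fell with LPS+MV, 3 rose and 4 fell with LPS and 2 rose and 6 fell with MV in adults. In juveniles 5 rose and 1 fell with LPS+MV, 3 rose and 2 fell with LPS and 4 rose and 2 fell with MV. Stat3, a transcription factor that EGFR and cytokine receptors activate, rose by 0.86 with LPS+MV and 0.51 with LPS in adults and by 1.28 and 0.88 in juveniles. Grb2, the adaptor that links receptors to RAS, rose by 0.46 and 0.37 in adults and by 0.32 and 0.42 in juveniles, and Akt1 fell with LPS+MV (-0.35 in adults and -0.39 in juveniles).

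Among 14 genes induced through ERK tested of 18 listed, 11 rose and 1 fell with LPS+MV, 10 rose and 1 fell with LPS and 1 rose and 1 fell with MV in adults. In juveniles 12 rose and 1 fell with LPS+MV, 8 rose and 1 fell with LPS and 5 rose and 0 fell with MV. Myc and Plaur, a transcription factor and the urokinase receptor, rose by 1.90 and 2.18 with LPS+MV in adults and by 1.38 and 1.81 in juveniles. Etv5 was the gene that fell, with log2 fold changes of -2.75 and -2.16 with LPS+MV and LPS in adults, -2.23 and -1.53 in juveniles, and -0.82 with MV in adults. It also stands among the alveolar type 2 markers used above. Many of these genes respond to other signals than those of EGF receptors.

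**Figure D5:**
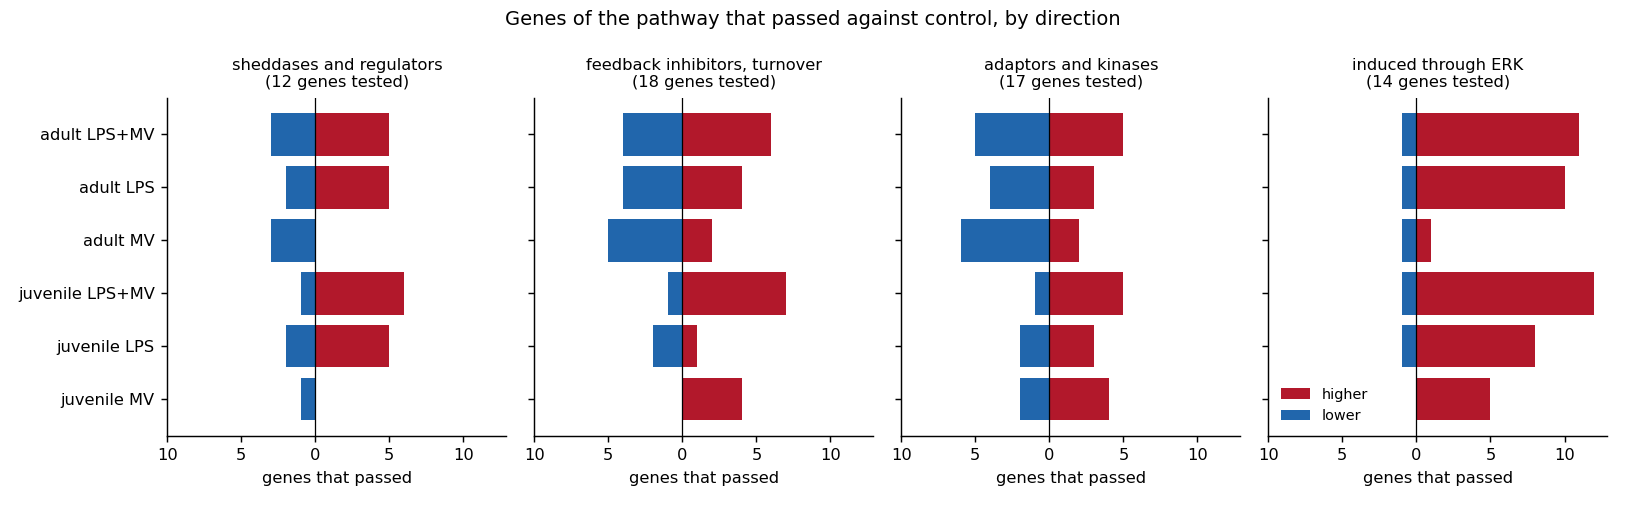
Number of genes of each pathway list that passed against the control of the same age, higher to the right and lower to the left of 0, with adult groups above juvenile groups. Genes induced through ERK passed mostly as higher in the LPS and LPS+MV groups, with 11 and 12 of 14 higher in adult and juvenile LPS+MV lungs. Of all genes tested, 42.1% and 31.3% passed in these groups, in either direction.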

How the data were processed

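RNA of whole lung from 30 mice was hybridised to Affymetrix mouse expression arrays, per the labels' protocols. The authors deposited 1 table of probe set intensities on a linear scale, made with MAS5 per the submitters' processing notes; scaling and background settings are not given in the sources used here, and neither scan dates nor batches were used. Microarrays give no read depth, and the number of arrays limits precision.

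Intensities were kept as deposited and transformed to log2(intensity + 32). Probe sets were named from the platform annotation when it gave 1 symbol (34945 of 45037), kept if at least 3 arrays read them higher than the median of that array (24825), and the brightest probe set stood for a gene (13089 genes tested). One linear model with a mean per group was fitted to all 30 arrays in limma 3.58.1 (R 4.3.3) with an intensity trend and 22 residual degrees of freedom. P-values are two-sided, adjusted by Benjamini-Hochberg over all genes in each of 16 comparisons. On simulated data of this design the fit was tested before use. Levels are not compared between probe sets. Figures were drawn with matplotlib 3.10.9.

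Each sample was a separate animal per the design text. Same-numbered arrays of different groups share only a number, except that in juvenile LPS+MV and MV all 3 same-numbered pairs deviated together (correlations of residuals 0.119 to 0.328).

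All 8 members are named with all their probe sets. Of each pathway list, genes with the smallest p among those that passed are named, and others with their value. Members and lists were chosen with earlier results of these data known. Some listed genes were not analysed here. Promoter windows are from RefSeq on GRCm38.p6. Alternatives covered quantile normalization, an added constant of 1, no filter, the mean over probe sets, array weights, no intensity trend, only the compared groups, a replicate block, an Xist term and leaving out each array.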

Additional observations from a re-analysis of the deposited data

Results flagged for a closer look

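In 3 of 48 groups of 4 animals tested, 1 animal lay far from the others relative to the spread of its group. Chance would give about 1 group in 20, a share close to the one seen. Ereg read 49.4 in adult LPS replicate 1, against 21.5 to 24.9 in the other animals of that group. Erbb2 read 119 in adult LPS replicate 4, against 102 to 103 in the others. Adam17 read 480.1 in adult LPS+MV replicate 1, against 451 to 455 in the others.

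In 3 cases a response differed between adults and juveniles by the limma test of the difference itself. The MV response of Hbegf was lower in adults by -0.77 ± 0.20 (log2, ± SE), and its LPS+MV response by -0.83 ± 0.20. The MV response of Tgfa was lower in adults by -0.47 ± 0.13. No dimmer probe set of these genes passed for these differences. The Hbegf difference with LPS+MV and the Tgfa difference were each lost when some single arrays were left out. The Tgfa difference was also lost with an Xist term (adjusted p = 0.094). For both MV responses, ventilation and Xist level cannot be told apart in adults.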

How the results depend on the processing

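Of 112 tests of a gene in a comparison, 41 passed, 25 of these passed with any 1 array left out and 23 under all alternatives tried, and no call reversed. Ereg is among the 7 genes counted here. It passed the filter only through the groups in which it was high, so its part of these counts supports nothing. The number of the 7 genes that passed moved by over 1.5 times in the following cases. With quantile normalization it was 1 for juvenile MV (2 as reported), 1 for adult LPS+MV against LPS (0), and 1, 1 and 2 for the age differences in the MV, LPS and LPS+MV responses (2, 0 and 1). An added constant of 1 gave 1 for the age difference with LPS, and no filter gave 1 for juvenile MV. The mean over probe sets gave 1 for juvenile MV, 1 for the age difference with MV and 0 for that with LPS+MV. Array weights gave 4 for juvenile MV, 5 for juvenile LPS+MV against LPS (3 as reported), 1 for the juvenile departure from additivity (0), 2 for adult LPS+MV against LPS and 2 for the age difference with LPS+MV. Fitting only the compared groups gave 0 for juvenile MV, 3 for juvenile LPS+MV against control (5 with Ereg), 1 for adult LPS+MV against LPS, and 1, 1 and 0 for the age differences with MV, LPS and LPS+MV. An Xist term gave 1 for juvenile MV, 1 for juvenile LPS+MV against LPS and 1 for the age difference with MV. Without the 3 arrays with a wide residual spread, an alternative chosen after seeing the data, it was 1 for the juvenile departure from additivity and 1 for the age difference with LPS. The causes were not tested.

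With the replicate block, adult LPS+MV against LPS had 1 gene (Erbb2, adjusted p = 0.047), and Egfr passed with LPS (adjusted p = 0.034) and LPS+MV (adjusted p = 0.043) in juveniles. The replicate block changed no other call in the fit over all groups. All same-numbered pairs correlated above 0.1 in 1 comparison, juvenile LPS+MV against MV, where the block within these groups, chosen after seeing the data, gave 2 of the 7 genes (Hbegf and Ereg, 3 as reported) and 1254 genes in all (1928 as reported).

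Leaving out each array in turn, 0 to 2 genes passed for juvenile MV, 2 to 6 for juvenile LPS+MV, 1 to 3 for juvenile LPS+MV against LPS, and 0 to 1 for adult LPS+MV against LPS and for either departure from additivity. It was 1 to 2, 0 to 1 and 0 to 2 for the age differences with MV, LPS and LPS+MV, 3 to 4 for the control groups, 2 to 3 for juvenile LPS and adult MV, 4 to 5 for adult LPS and adult LPS+MV against MV, and 5 to 6 for adult LPS+MV.

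Over all genes, fitting only the compared groups gave 27 calls for juvenile MV (1422 as reported), 2663 for juvenile LPS+MV (4102), 1330 and 1050 for it against LPS and MV (2024 and 1928), 40 for the juvenile departure from additivity (99), and 415 and 71 for the age differences with MV and LPS+MV (805 and 275). Array weights gave 2623, 3437 and 4729 for juvenile MV, LPS+MV against LPS and LPS+MV against MV, 510 and 1604 for the juvenile and adult departures (99 and 938), 1774 for adult LPS+MV against LPS (927), and 2080, 940 and 1732 for the age differences with MV, LPS and LPS+MV (805, 484 and 275). An Xist term gave 1710 for adult MV (4121), 246 for adult LPS+MV against LPS, 1133 for juvenile LPS+MV against LPS and 191 for the age difference with MV. Quantile normalization gave 159 for the juvenile departure, the replicate block 418 for the age difference with LPS+MV, and leaving out the 3 arrays 1469, 984 and 498 for the age differences. With any 1 array left out the counts ran from 650 to 1582 for juvenile MV, 329 to 1308 for the age difference with MV and 93 to 1134 for that with LPS+MV. They ran from 334 to 822 for the age difference with LPS (highest without juvenile control replicate 4), 479 to 987 for the adult departure (lowest without adult control replicate 2), 59 to 109 for the juvenile one and 1283 to 1780 for juvenile LPS+MV against LPS (both lowest without juvenile LPS+MV replicate 3), and 543 to 951 for adult LPS+MV against LPS (lowest without adult LPS replicate 2). Of 80 counts of a pathway list, quantile normalization moved 9, an added constant of 1 moved 3 and no filter moved 9. Ereg, Btc, the dimmer Tgfa probe sets and Egfr probe sets 1451530_at, 1432647_at, 1454313_at and 1457563_at lie near or below the array median. This limits what can be measured of them. Egfr probe sets 1460420_a_at and 1424932_at were above their array's median on all 30 arrays.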
